A study of Danio rerio with 20 samples.

Results

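The zebrafish array used here carries 13 spots named for the complete mitochondrial genome record, each printed once with an ID of its own, among 16407 different probes. All 13 were followed in whole zebrafish embryos at 48 h, and 10 of them could be tested between solvent groups, as could 3652 probes of the array in all. The other 3 were dim, and the lowest confidence grade left them with a ratio in 0 to 4 of the 9 pairs of pools used. None of the 10 tested probes passed the test in any comparison between groups when pairs of RNA pools were taken as the replicates. Among all tested probes, 0 to 0.712% passed in a comparison, so a count of 0 among 10 says little. The largest difference was that of probe 05g20, which was lower at 0.1 than at 0.025 ml/L DMSO, with a log2 difference of -0.996 and an adjusted p of 0.134 in limma. The pair of pools that set these groups directly against each other gave -0.37.

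The study had 5 groups of embryos of a breeding stock. The control group was unexposed to solvent, and the others were kept in dimethyl sulfoxide (DMSO) at 0.025 or 0.1 ml/L or in dimethylformamide (DMF) at 0.025 or 0.1 ml/L, organic solvents that are used to bring poorly soluble chemicals into test water. The labels name no mutant, transgene or strain. Each group had 4 RNA pools, and a pool held the surviving embryos of a plate, so the replicates stand for plates and not for single animals. The 20 pools were set against each other in 10 pairs, each pair on 2 arrays with the Cy3 and Cy5 dyes exchanged, which gives 20 arrays with 2 channels. In whole embryos, fewer cells of a type and less RNA per cell cannot be told apart.

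The mitochondrial genome is a small circle that is inherited through the egg and is present in many copies per cell. The reference gene table lists 37 genes on it, namely 13 that code for proteins, 2 for ribosomal RNAs and 22 for transfer RNAs. The proteins are subunits of the respiratory chain complexes and of ATP synthase, and the RNAs serve the ribosomes of the organelle. Both strands are transcribed into long precursors that are cut into single RNAs, largely at the transfer RNAs, so transcripts of different genes start as parts of the same molecule. The mitochondrial messenger RNAs carry poly(A) tails, and in tissues that use much energy, such as heart, muscle and brain, they are among the most abundant RNAs of the cell.

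The files name all 13 probes with that same genome record and with nothing else. They do not say which gene, which strand or which stretch of the circle a probe reads, and the number of probes equals that of the protein-coding genes only as a number. The probes are therefore given by ID. Several of them may read the same RNA or parts of a shared precursor, so they are not independent measurements. All 13 spots lay in row 18 of the 19 rows of their printing blocks, in 9 of the 48 blocks of the array.

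An array gave a fluorescence amplitude per spot and channel. Of the 20 arrays, 18 in 9 pairs were used for comparisons. Array 1 (DMSO 0.1 replicate 1 in Cy3, DMF 0.025 replicate 2 in Cy5) names the same scan as array 17, and their raw log ratios correlated at 0.881 over spots, against at most 0.605 for the other 189 combinations of 2 arrays. Its dye-swapped partner, array 2, was left out with it. The mitochondrial spots show the likeness of the 2 files closely. On arrays 1 and 17, 9 of the 13 members had Cy3 amplitudes within 1% of each other, but 05g12 read 159 on array 1 and 43705 on array 17, and 05g24 read 189 and 43405. Of 8 spots above 40000 in both channels on array 17, 4 were under 1000 in both on array 1. Arrays 1 and 2 were read with version 3.3 of the image software and the other 18 arrays with version 3.6. On array 2, 05g12 read 438 in Cy3 and 93.2 in Cy5, and both spots had the lowest grade on arrays 1 and 2.

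The scans fell into batches by the scan names. The pairs used comprise 12 arrays of the second batch and 6 of a later one, and no pair was split between them, so each ratio was formed within a batch. Between 35.5 and 51.0% of spots were above the lowest confidence grade on the 12 arrays and between 56.2 and 67.4% on the 6. In Cy5, empty spots were brighter in the second batch, with a median amplitude per array of 48.6 to 1940 against 7.38 to 45.2 in the later batch. In Cy3 the batches overlapped, at 17.9 to 564 and 26.2 to 74.2.

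**Figure D1:**
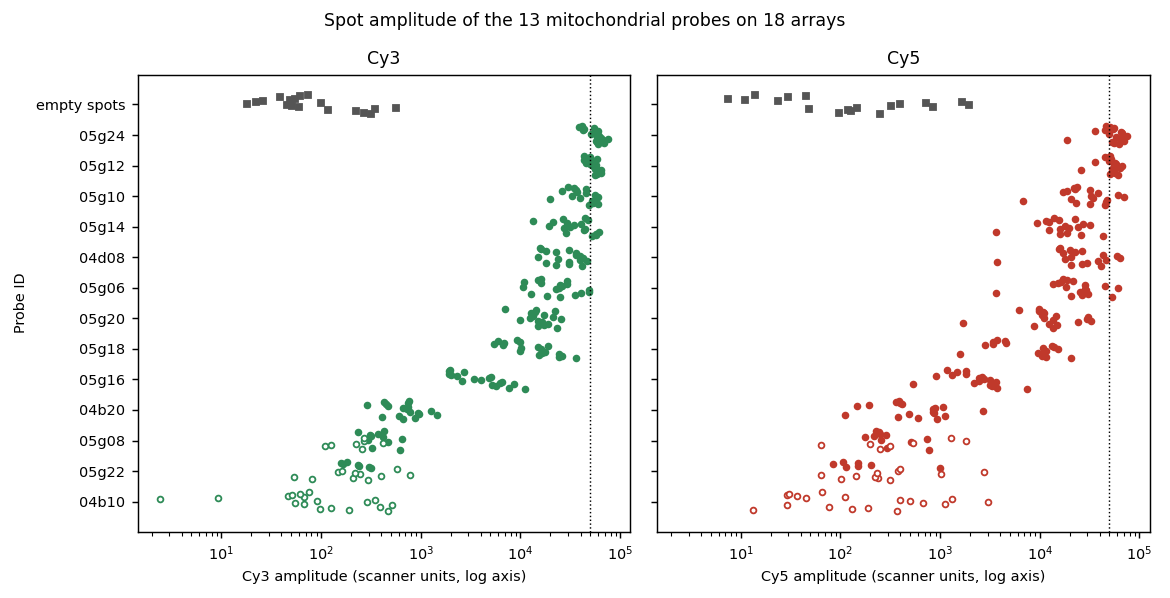
Amplitude of the 13 mitochondrial probes in Cy3 (left) and Cy5 (right), in scanner units on a log axis, with 1 point per array for the 18 arrays used; open points have the lowest confidence grade, grey squares are the medians of empty spots, and the dotted line marks 50000. Probes 05g24 and 05g12 sit around the line in both channels, while 05g08, 05g22 and 04b10 sit close to the empty spots.

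Most members were bright. Probe 05g24 had Cy3 amplitudes from 38760 to 74864 with a median of 58449, and 05g12 from 43444 to 64638 with a median of 56173. Both lay above 50000 in most of the 36 channels, 05g24 in 27 and 05g12 in 28, where the highest spot of an array and channel ranged from 49763 upwards. Probe 05g10 passed that level in 9 channels, 05g14 in 4, and 04d08 and 05g06 in 2 each. The remaining tested members stayed under it, with median Cy3 amplitudes of 15675 for 05g20, 15052 for 05g18, 4395 for 05g16 and 736 for 04b20. These amplitudes describe spots, and the level of a probe was not set against that of another.

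Probe 04b20, the dimmest of the tested members, had a median amplitude 6.22 times that of the empty spots of its channel, with a range from 0.637 to 55.9 over the channels. All 10 tested members were above the lowest grade on 18 of 18 arrays and had a ratio in 9 of 9 pairs. The 3 others passed no such filter. Probe 05g08 was above the lowest grade on 5 of 12 arrays of the second batch and on 6 of 6 of the later one, and it had a ratio in 4 pairs, from -0.05 to 0.48. Probe 05g22 was graded so on 1 of 12 and on 6 of 6 arrays, with a ratio in 3 pairs from -0.02 to 0.43. Probe 04b10 had the lowest grade on all arrays, with a median amplitude 1.12 times that of the empty spots, and gave no ratio.

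In 3 members the difference between the dyes was larger in size than any fitted difference between groups of the same probe. After normalisation, probe 05g14 was lower in Cy5 than in Cy3 on 18 of 18 arrays, whichever pool was in Cy5, with a mean log2 ratio of Cy5 over Cy3 of -0.88 ± 0.16 (SD, n = 9 pairs). The same held for 05g16 on 18 of 18 arrays, with a mean of -0.76 ± 0.39, and for 05g18 on 17 of 18, with a mean of -0.66 ± 0.15. Over all tested probes this mean lay between -0.53 and 0.45 from the 5th to the 95th percentile, so these 3 members lay outside that range. The other 7 were inside it, from -0.34 for 05g10 to 0.15 for 05g06. Averaging the 2 arrays of a pair cancels a dye effect that both share, and all ratios between pools below are such averages.

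**Figure D2:**
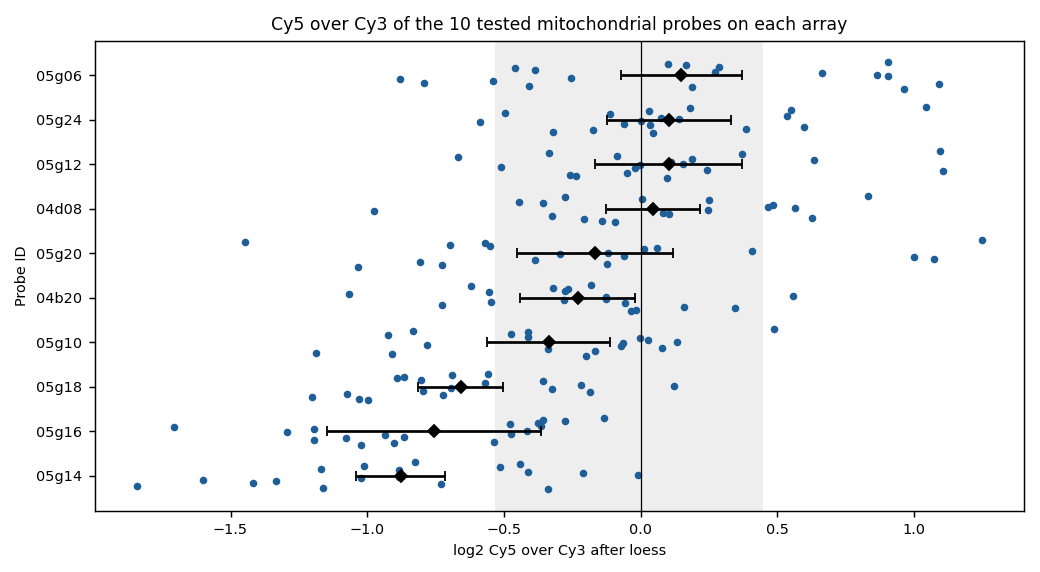
Normalised log2 ratio of Cy5 over Cy3 of the 10 tested mitochondrial probes, with 1 blue point per array for 18 arrays; diamonds with bars are the mean and SD over the 9 pairs, and the grey band spans the 5th to the 95th percentile of the means of all tested probes. Every point of 05g14 and 05g16 lies below 0.

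Once the mean dye effect of each probe was taken off, the 2 arrays of a pair could be set against each other. Over the 10 members their correlation ranged from -0.04 to 0.88 among the 9 pairs, and over all tested probes from -0.05 to 0.69. The lowest value over the members was that of DMF 0.1 replicate 2 over DMF 0.025 replicate 3, where 3 of 10 members had the same sign on both arrays. The lowest over all tested probes was that of DMF 0.025 replicate 4 over DMSO 0.025 replicate 3, with the same sign for 44.5% of probes. In that pair the members correlated at 0.51, and 8 of 10 had the same sign.

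In single pairs the members did not move as a block. In the pair of DMF 0.1 replicate 3 over DMSO 0.1 replicate 4, 9 of the 10 members were above 0, with a median log2 ratio of 0.42. Probe 05g20 stood highest there at 1.35 and 05g14 lowest at -0.19. In the pair of DMSO 0.025 replicate 1 over control replicate 1, 9 of 10 were below 0, with a median of -0.30 and 05g14 lowest at -0.92.

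In DMSO 0.1 replicate 2 over DMSO 0.025 replicate 2, 8 of 10 were below 0 and the median was -0.34. In DMF 0.025 replicate 4 over DMSO 0.025 replicate 3, 7 of 10 were below 0 and the median was -0.40. In DMF 0.025 replicate 1 over control replicate 2, 7 of 10 were below 0 and the median was -0.23. These pairs lean to one side, and none has all 10 members on it.

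The remaining 4 pairs had medians closer to 0. The median was 0.16 in DMF 0.1 replicate 2 over DMF 0.025 replicate 3 and -0.05 in DMSO 0.1 replicate 3 over control replicate 4. It was 0.03 in DMF 0.1 replicate 1 over control replicate 3 and 0.00 in DMF 0.1 replicate 4 over DMSO 0.025 replicate 4. In that last pair the members ranged from -1.02 for 05g20 to 0.92 for 05g06. The median of all probes lay between -0.08 and 0.11 in the 9 pairs.

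**Figure D3:**
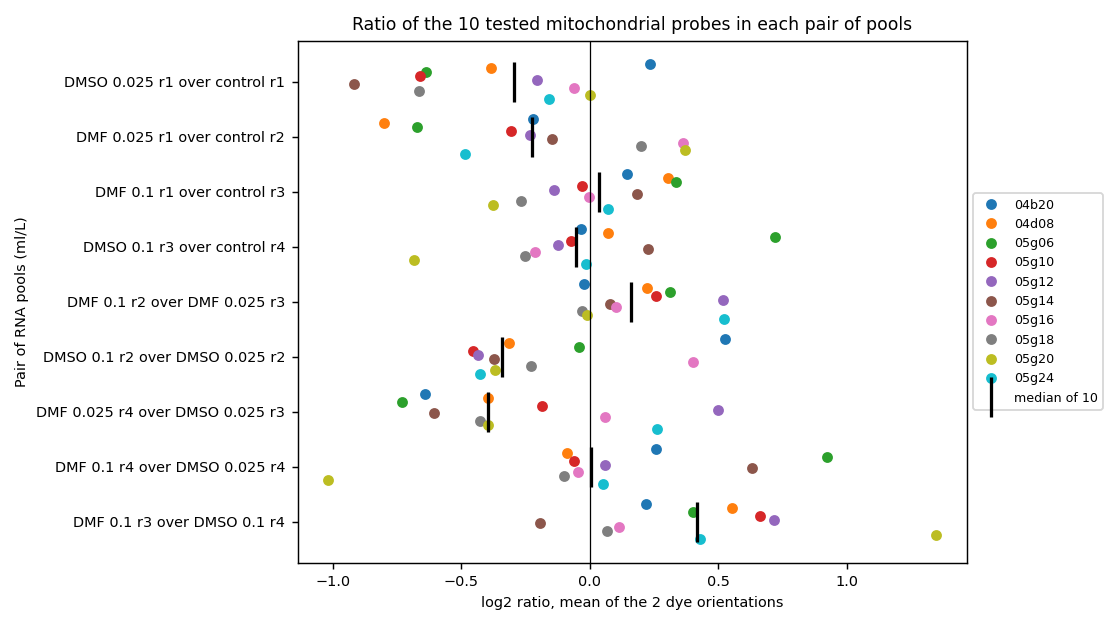
Log2 ratio of the 10 tested mitochondrial probes (coloured points) in each of 9 pairs of RNA pools, as the mean of 2 dye orientations, with the median of the 10 as a black bar; r is the replicate number. In the lowest line 9 of 10 points are above 0, and 05g20 spans -1.02 to 1.35 over the lines.

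Over the 9 pairs, the ratios of members correlated with each other between -0.44 and 0.90, with a median of 0.23, and 34 of the 45 combinations of 2 members were above 0. Probes 05g12 and 05g24 were the most alike at 0.90, followed by 05g06 and 05g14 at 0.84 and by 04d08 and 05g10 at 0.80. Probe 05g16 went against 05g06 at -0.44 and against 05g24 at -0.44. All these points share arrays and pools, and the correlations are a description. Correlations between other probes were not set beside them, so these values cannot tell whether members are more alike than other probes. Probes 05g12 and 05g24 lie in the same printing block, and both were above 50000 in most channels. Probes 05g06 and 05g18 also share a block, and they correlated at 0.29. The part of block or brightness in these values was not tested.

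The probes outside the set with the most similar pattern were taken by the correlation with the median member over the 9 pairs, among 2675 probes with all 9 ratios. Probes 08b21 and 35i08 were highest, both at 0.93, and 41a05 and 30o04 lowest, at -0.93 and -0.94. No table used here pairs these 4 with a gene. They were picked as the ends of the list, so large values of either sign come with the choice, and they are a description.

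Against control, the question is whether a solvent alone moved the embryo's mitochondrial transcripts. For DMSO 0.025 ml/L, 8 of 10 members were below 0 and 2 above, and the median log2 difference was -0.15 against -0.02 for all tested probes. Of all tested probes, 46.1% were above 0 here, and 43.6 to 55.7% were in the comparisons between groups that follow. No member passed the test (limma, Benjamini-Hochberg over all tested probes, adjusted p under 0.05), and the lowest unadjusted p was 0.337. Among all tested probes 0% passed the adjusted test and 4.44% had an unadjusted p under 0.05. The median rested on the pair of DMSO 0.025 replicate 1 and control replicate 1 and was 0.09 without it.

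For DMSO 0.1 ml/L, 7 of 10 members were below 0, with a median of -0.29 against -0.06 for all tested probes. The median was -0.01 with print-tip loess and -0.02 in the authors' deposited table. None passed the test, which 0.274% of all tested probes did. Probe 05g20 had an unadjusted p under 0.05, as 12.4% of all tested probes had. Its difference was -0.78 ± 0.30 (SE), with a 95% interval from -1.42 to -0.14 and an adjusted p of 0.335 in limma. Probes 05g10 and 05g12 followed at -0.48 ± 0.22 and -0.46 ± 0.23, with intervals that include 0.

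For DMF 0.025 ml/L, 8 of 10 members were below 0, with a median of -0.24 against -0.00 for all tested probes, and of -0.02 with median centring in place of loess. The lowest were 05g06 at -0.53 ± 0.28 (SE) and 04d08 at -0.49 ± 0.23, and their intervals include 0. No member passed at an adjusted or an unadjusted p of 0.05. The shares among all tested probes were 0 and 6.33%.

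For DMF 0.1 ml/L, 7 of 10 members were above 0, with a median of 0.04 against -0.00 for all tested probes, and they ranged from -0.26 for 05g18 to 0.35 for 05g06. No member passed at either threshold, where 0 and 1.01% of all tested probes did. The sign of the median was not stable. Leaving out DMSO 0.1 replicate 3 over control replicate 4 gave -0.07, and the second batch alone gave -0.15. In that batch the only DMF 0.1 pool was replicate 4, paired with DMSO 0.025 replicate 4, and the fit left 2 residual degrees of freedom. Without spots over 50000 the median for DMF 0.1 against control was -0.05, but over 4 members only. In the main fit these stood at 0.14 for 04b20, 0.05 for 05g16, -0.26 for 05g18 and -0.15 for 05g20. The 4 comparisons share the control pools.

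The 95% interval reached a median of 0.46 to either side of a member's difference for DMSO 0.025 and DMF 0.1, and 0.49 for DMSO 0.1 and DMF 0.025 without adjustment for the number of probes. Larger differences than these were also not called.

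**Figure D4:**
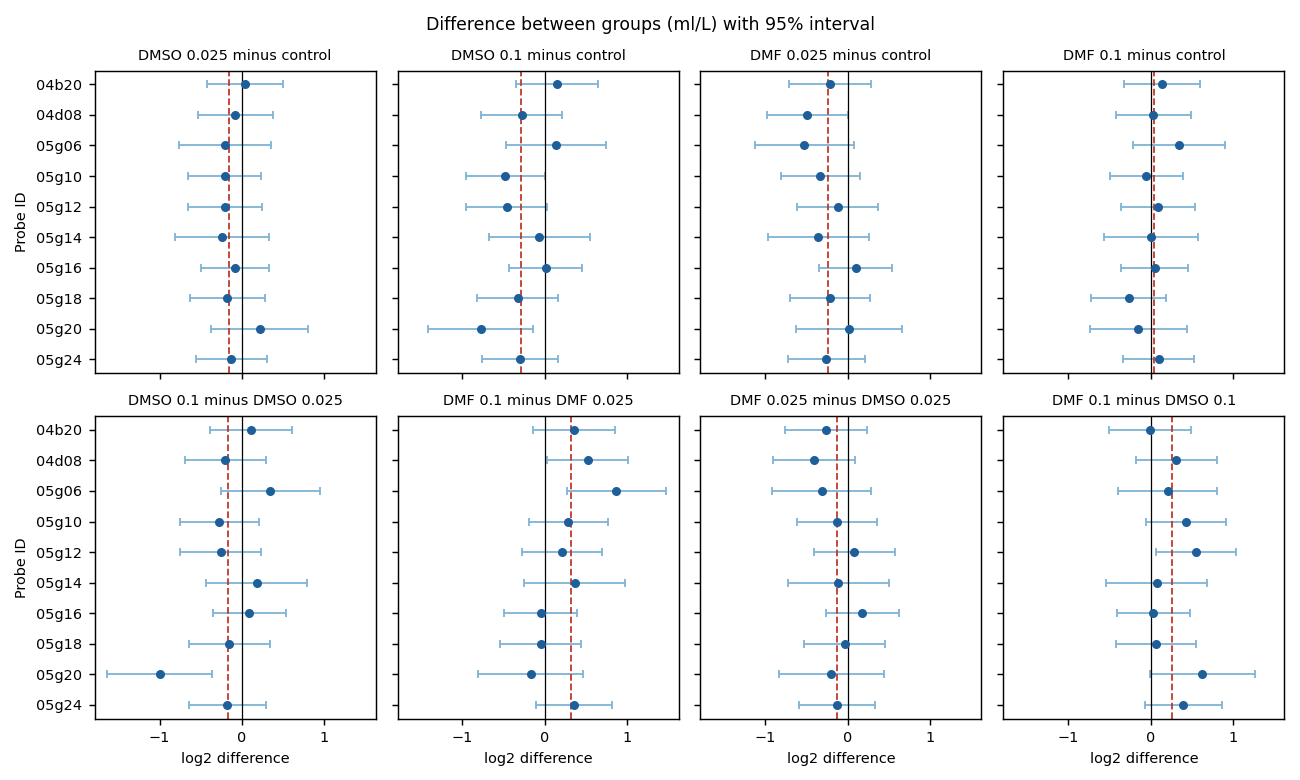
Log2 difference between groups (solvent in ml/L) of the 10 tested mitochondrial probes, with the 95% interval of the limma fit to 9 pairs; the dashed line is the median of the 10. Most intervals include 0; 05g20 is furthest from 0, at -0.996, for the step in DMSO.

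The step from 0.025 to 0.1 ml/L was compared within each solvent. In DMSO, 6 of 10 members were below 0, with a median of -0.16 against -0.03 for all tested probes. No member passed, against 0.438% of all tested probes. Probe 05g20 differed by -0.996 ± 0.297 (SE), with an interval from -1.63 to -0.36, an unadjusted p of 0.00492 and an adjusted p of 0.134 in limma. Its size rested on single pairs, with -0.64 when DMF 0.1 replicate 3 over DMSO 0.1 replicate 4 was left out and -1.54 when DMSO 0.1 replicate 2 over DMSO 0.025 replicate 2 was. The latter is the direct pair of this comparison, and its own ratio for 05g20 was -0.37. The difference of 05g20 thus came largely through the other pairs. It was -0.49 with print-tip loess and -0.58 in the second batch alone. An unadjusted p under 0.05 was found for that 1 member and for 17.3% of all tested probes.

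In DMF, 7 of 10 members were above 0, with a median of 0.32 against 0.00 for all tested probes. Probe 05g06 differed by 0.87 ± 0.28 (SE), with an interval from 0.27 to 1.47, and 04d08 by 0.52 ± 0.23, with an interval from 0.03 to 1.02. Both had an unadjusted p under 0.05, which 2.79% of all tested probes had, and an adjusted p of 0.997 in limma. None passed the adjusted test, as 0% of all tested probes did. Within the second batch alone the median was 0.07 and 05g06 differed by 1.57. In that batch DMF 0.1 entered only through DMF 0.1 replicate 4 over DMSO 0.025 replicate 4, where 05g06 stood at 0.92. Without DMF 0.025 replicate 4 over DMSO 0.025 replicate 3 the median was 0.21. The direction of the median turned with median centring (-0.04) and with the replicate number as a block. Without spots over 50000 the median was -0.05, but over 4 members only. In the main fit these stood at 0.36 for 04b20, -0.05 for 05g16, -0.05 for 05g18 and -0.17 for 05g20. The direct pair of this comparison, DMF 0.1 replicate 2 over DMF 0.025 replicate 3, was the pair whose arrays agreed least over the members, and without it 05g06 differed by 1.36 and 04d08 by 0.79.

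The test of the difference between the 2 steps itself, DMF minus DMSO, put 9 of 10 members above 0, with a median of 0.50 against 0.05 for all tested probes, of which 54.7% were above 0. Probe 04d08 had the lowest p, with a difference of 0.72 ± 0.30 (SE), an unadjusted p of 0.0309 and an adjusted p of 0.325 in limma. Probe 05g20 had a larger difference of 0.83 ± 0.39, with an interval that includes 0, and of -0.36 in the second batch alone. No member passed, where 0.329% of all tested probes did, and 1 member against 13.6% of them had an unadjusted p under 0.05. The median was 0.20 within the second batch, 0.14 with print-tip loess and 0.07 with median centring.

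DMSO and DMF differ in structure, a sulfoxide against an amide, and they were compared at both matched concentrations. At 0.025 ml/L, DMF minus DMSO put 8 of 10 members below 0, with a median of -0.13 against -0.00 for all tested probes. No member passed at either threshold, where 0 and 9.53% of all tested probes did. The member furthest from 0 was 04d08 at -0.41 ± 0.23 (SE), with an interval from -0.90 to 0.09. The median was 0.01 without the direct pair, DMF 0.025 replicate 4 over DMSO 0.025 replicate 3, and 0.18 with median centring.

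At 0.1 ml/L, 9 of 10 members were above 0, with a median of 0.26 against 0.04 for all tested probes, of which 55.7% were above 0. Probe 05g12 differed by 0.55 ± 0.23 (SE), with an interval from 0.06 to 1.04 and an adjusted p of 0.327 in limma, and it was the only member with an unadjusted p under 0.05, against 12.8% of all tested probes. Probe 05g20 differed by 0.63 ± 0.30, with an interval from -0.01 to 1.27, but by -0.0015 without the pair of DMF 0.1 replicate 3 and DMSO 0.1 replicate 4 and by -0.43 in the second batch alone. In that batch DMF 0.1 entered only through DMF 0.1 replicate 4 over DMSO 0.025 replicate 4, where 05g20 stood at -1.02. The difference of 05g12 was 0.12 with print-tip loess and 0.24 in the second batch. None passed the adjusted test, which 0.712% of all tested probes did. Leaving out DMF 0.1 replicate 3 over DMSO 0.1 replicate 4 gave a median of 0.09, leaving out DMSO 0.1 replicate 3 over control replicate 4 gave 0.50, the second batch alone gave 0.06, and print-tip loess gave -0.03. The intervals leave room for a difference in either direction in most members, and they do not show that the solvents act alike.

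With 1 test per probe over the 5 groups, no member passed the F test, which 0.11% of all tested probes did. None of the 10 had an unadjusted p under 0.05, against 9.88% of all tested probes, and 05g20 had the lowest at 0.0572. The fitted order of the groups differed between members. DMSO 0.1 was lowest in 5 members (05g10, 05g12, 05g18, 05g20 and 05g24), DMF 0.025 in 4 (04b20, 04d08, 05g06 and 05g14) and DMSO 0.025 in 05g16.

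The same arrays were also read as levels, a log2 value per RNA pool after scaling between arrays, averaged over both dyes. Probe 05g20 stood at 13.72, 13.69, 14.65 and 13.96 in control replicates 1 to 4. In DMSO 0.1 it stood at 12.74, 13.27 and 12.56 in replicates 2 to 4, all below the lowest control pool. In DMSO 0.025 it stood at 13.72, 13.10, 13.50 and 14.22.

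The DMF pools of 05g20 overlapped the controls. They stood at 14.07, 13.78 and 13.10 in DMF 0.025 replicates 1, 3 and 4 and at 14.27, 13.77, 13.90 and 13.20 in DMF 0.1 replicates 1 to 4. For the pools of the left-out pair only array 2 could be read, in 1 dye each, at 13.59 for DMSO 0.1 replicate 1 and 13.15 for DMF 0.025 replicate 2, which is the opposite order to the other pairs with a DMSO 0.1 pool. In those 3 pairs DMSO 0.1 was the lower pool, with log2 ratios of -0.68 over control replicate 4, -0.37 over DMSO 0.025 replicate 2 and 1.35 for DMF 0.1 replicate 3 over DMSO 0.1 replicate 4. Leaving out that last pair gave -0.42 in place of -0.78 for DMSO 0.1 against control.

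Probe 05g06 stood at 14.94, 14.52, 14.66 and 15.05 in DMF 0.1 and at 14.21, 14.20 and 13.78 in DMF 0.025. These pools do not overlap. The controls ran from 13.89 to 14.88, across both.

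Probe 04d08 stood at 15.26, 14.68, 14.59 and 14.78 in DMF 0.1 and at 14.08, 14.46 and 14.10 in DMF 0.025, again without overlap. Its controls ran from 14.59 to 14.96, above all DMF 0.025 pools.

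Probe 05g24 had group means of 15.81 ± 0.13 (SD, n = 4) in controls, 15.63 ± 0.28 (n = 4) in DMSO 0.025, 15.58 ± 0.10 (n = 3) in DMSO 0.1, 15.52 ± 0.03 (n = 3) in DMF 0.025 and 15.88 ± 0.12 (n = 4) in DMF 0.1. Probe 05g12 had means of 15.68 ± 0.33, 15.42 ± 0.31, 15.20 ± 0.18, 15.55 ± 0.07 and 15.85 ± 0.31 in the same order. In both probes DMSO 0.1 lay below all DMF 0.1 pools.

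Probe 05g10 stood between 15.20 and 15.51 in controls, and all pools of DMSO 0.1 (14.81 to 15.13) were below that range. Those of DMF 0.025 ran from 14.71 up to the lowest control, 15.1997 against 15.2002. Its DMF 0.1 pools spread most, from 14.37 to 15.68.

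The other 4 tested members overlapped between groups in every comparison. Control means were 14.44 ± 0.59 (SD, n = 4) for 05g14, 13.54 ± 0.40 for 05g18, 11.50 ± 0.40 for 05g16 and 9.29 ± 0.39 for 04b20. Their DMF 0.1 means were 14.79 ± 0.24, 13.03 ± 0.47, 11.56 ± 0.27 and 9.27 ± 0.34.

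**Figure D5:**
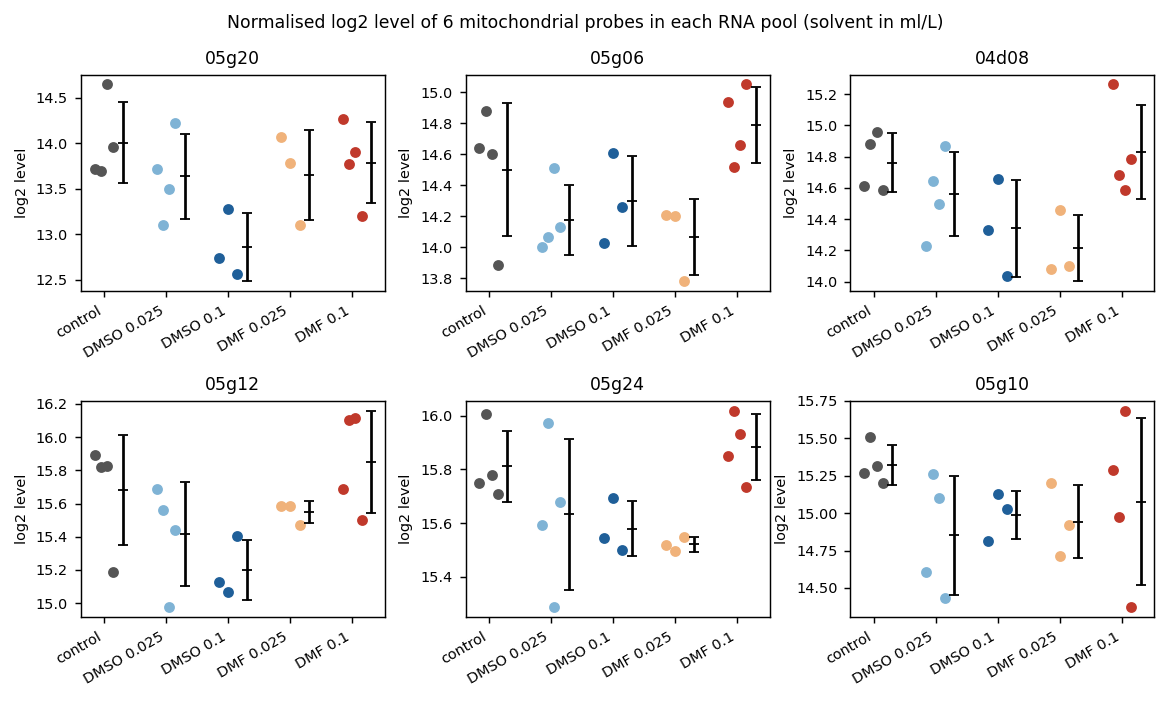
Normalised log2 level of 6 mitochondrial probes in each RNA pool, by group (solvent in ml/L), averaged over both dyes; points are pools (3 or 4 a group), and bars are the mean and SD. The 3 DMSO 0.1 points of 05g20 lie below all its control points, and the DMF 0.1 and DMF 0.025 points of 05g06 do not overlap.

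Groups without overlap in these levels were counted over the 2685 tested probes with a level in all 18 pools. For DMSO 0.1 against control, 3 of 10 members were lower in all pools (05g10, 05g20 and 05g24), against 6.11% of probes without overlap in either direction. Of these probes, 29 were higher and 135 lower. For DMF 0.025 against control, 3 of 10 were lower (04d08, 05g24 and, with no gap at 2 decimals, 05g10), against 4.28% of probes, with 8 higher and 107 lower. For DMF 0.1 against DMF 0.025, 3 of 10 were higher (04d08, 05g06 and 05g24), against 4.88% of probes, with 127 higher and 4 lower. In each of these comparisons the members went the way of most probes without overlap, so the shared direction is not particular to them.

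For DMF 0.1 against DMSO 0.1, 2 of 10 were higher (05g12 and 05g24), against 6.93% of probes, with 156 higher and 30 lower, again mostly the members' way. No member was without overlap in the other 4 comparisons. There the shares of probes were 5.33% for DMSO 0.025 against control, 2.2% for DMF 0.1 against control, 7.19% for the step in DMSO and 4.77% for DMF against DMSO at 0.025 ml/L. The levels come from different arrays and 2 scan batches, and the members share their arrays, so these shares are a description, and the fits to ratios above called no member. Groups were not spread evenly over the batches. Of the pools used, the later batch held replicates 1, 2 and 3 of DMF 0.1, replicate 3 of control and of DMF 0.025, and replicate 4 of DMSO 0.1. It held no DMSO 0.025 pool, so group and batch cannot be fully told apart in the levels. Of the 6 members named in these counts, 05g12 and 05g24 were above 50000 in most channels, and the part of that in their levels was not tested.

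A fit that treated the channels of all 18 arrays as separate measurements, and so counted the 2 arrays of a pair as 2 replicates, made 7 member calls in 5 of the comparisons, among 2685 probes. Probe 05g20 passed for DMSO 0.1 against control (-0.85, adjusted p 0.0102 in limma), as 6.7% of all probes did, and for the step in DMSO (-0.95, adjusted p 0.00188), as 13.9% did. Probe 05g06 passed for the step in DMF (0.83, adjusted p 0.0198), as 0.149% of all probes did. For DMF against DMSO at 0.1 ml/L, 05g12 (0.57, adjusted p 0.0117) and 05g20 (adjusted p 0.0277) passed, as 11% did. For the difference between the steps, 04d08 (0.74, adjusted p 0.0129) and 05g20 (adjusted p 0.0470) passed, as 9.94% did. In the F test 4 members passed, as 14.7% of all probes did.

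The genes of the nucleus that work with the mitochondrial genome could not be followed. Of 47 nuclear genes for respiratory complex subunits, 23 for mitochondrial transcription, replication and RNA turnover and 18 for mitochondrial stress, 0 carried a symbol on the array, since 47 spots in all could be paired with one. The same was so for 16 muscle, 8 blood and 11 yolk, liver and gut markers, so the tissue make-up of the pools could not be read from them. Of 12 neural markers, 3 were tested, the homeobox genes dlx1a, dlx2a and dlx5a of the developing forebrain, and none passed in any comparison. The lowest adjusted p was that of dlx5a for the step in DMSO, at 0.117 in limma, with a difference of 1.57 ± 0.41 (SE).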

How the data were processed

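RNA of 20 embryo pools was amplified before dye labelling, per the labels' protocols. The deposited spot intensities are amplitudes from BlueFuse, version 3.3 for 2 arrays and 3.6 for 18 per the file headers, with a confidence grade and no background column. The authors' deposited table gives 1 log2 ratio per spot, and how it was normalised is not given in the sources used here. Its columns were closest to the Cy5 over Cy3 ratios of their own arrays, with Spearman correlations from 0.379 to 0.839. Over the members, the Pearson correlation with the loess ratios of the same array ran from 0.341 to 0.975.

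Groups came from the labels. Spots of the lowest grade and 750 control spots were left out, log2 ratios were normalised by loess (span 0.3, 4 iterations) in R 4.3.3 with limma 3.58.1, and both orientations of a pair were combined by their mean. Probes with ratios in at least 8 of 9 pairs (3652) were fitted with lmFit and eBayes (4 coefficients, 5 residual and 8.67 prior degrees of freedom), with Benjamini-Hochberg adjustment per comparison and a threshold of 0.05. Pool levels used Aquantile scaling between arrays. The fit was run on simulated ratios with known changes and independent noise, which checks it only under its own assumptions. The precision is limited by the number of pairs. The pools come from separate plates of 1 stock. Members, lists and tests were chosen with earlier results of these data known. All 13 members are named, and outside them the 2 most and 2 least correlated probes and tested list genes. The alternatives comprised other backgrounds, normalisations, filters, blocks (statmod 1.5.0), batches and left-out pairs. Symbols came from the RefSeq gene table (file lists were read with jsonlite 2.0.0).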

Additional observations from a re-analysis of the deposited data

Results flagged for a closer look

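The level of probe 05g12 in control replicate 4 was 15.19 on the log2 scale, while the other 3 control pools lay between 15.82 and 15.89. It was picked out because its gap to the nearest pool is a large part of the whole range of the group. The 10 tested members gave 30 groups of 4 pools, of which 1 was picked out, and chance alone picks out about 1 in 20 such groups. The members share arrays, so the 30 groups are not independent. Control replicate 4 was the lowest control pool in every tested member but 05g20. For 05g14 it stood at 13.61, with the other control pools from 14.52 to 14.98. This pool was read on the same arrays as DMSO 0.1 replicate 3. That pool was the lowest DMSO 0.1 pool used for 05g12 (15.07), 05g14 (13.83), 05g16 and 04b20. It was the highest for 04d08, 05g06, 05g10, 05g20 and 05g24. The ratio between these pools was -0.12 for 05g12 and 0.22 for 05g14. The part of the shared arrays in these levels was not tested.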

How the results depend on the processing

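Counts of called members stayed at 0 in every comparison and in the F test under 25 of 26 alternatives. These left out each of the 9 pairs in turn or used all 10 pairs, the second scan batch, other normalisations, backgrounds, filters, blocks or variance models, or the authors' deposited table, and 2 were chosen after seeing the data (spots over 50000 left out, and the median of neighbouring rows of spots taken off, since all members share a row). The exception was the fit of separate channels, which takes the 2 arrays of a pair as separate replicates. It called 1 member for DMSO 0.1 minus control (6.7% of all 2685 probes), 1 for the step in DMSO (13.9%), 1 for the step in DMF (0.149%), 2 for DMF minus DMSO at 0.1 ml/L (11%), 2 for the difference between the steps (9.94%) and 4 in the F test (14.7%). The other 25 alternatives called few of all probes, at most 93 of 4270 in a comparison (step in DMSO, single arrays with a dye coefficient). The authors' deposited table called 0 of 3652 in every comparison, and keeping low-confidence spots called 1 of 16407 in 1 comparison. A count of 0 members says little in such settings.

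A median of the members is described as moved where it shifted by more than 0.194, the residual SD of the pair medians after the groups were fitted. The median for the difference between the steps moved from 0.50 to 0.20 in the second scan batch alone, 0.14 with print-tip loess, 0.072 with median centring and no loess, 0.24 with low-confidence spots kept (13 members), 0.11 in the authors' deposited table and 0.18 without spots over 50000 (4 members). That for the step in DMF moved from 0.32 to 0.067 in the second batch, 0.13 with print-tip loess, -0.044 with median centring and -0.049 without spots over 50000. That for DMF minus DMSO at 0.1 ml/L moved from 0.26 to 0.060 in the second batch, -0.033 with print-tip loess, 0.038 in the authors' deposited table and 0.050 without spots over 50000. For DMSO 0.1 minus control it moved from -0.29 to -0.0089 with print-tip loess and -0.021 in the authors' deposited table. With median centring, DMF 0.025 minus control moved from -0.24 to -0.024, and DMF minus DMSO at 0.025 ml/L from -0.13 to 0.18. The medians without spots over 50000 cover 04b20, 05g16, 05g18 and 05g20 alone, so they are not of the same members as the main medians. In the main fit these 4 stood at 0.25, -0.14, 0.10 and 0.83 for the difference between the steps. The cause of the other shifts was not tested. In the second batch alone, DMF 0.1 entered only through its pair with DMSO 0.025 replicate 4, and the fit left 2 residual degrees of freedom. With each pair left out in turn, the median ranged from -0.22 to 0.087 for DMSO 0.025 minus control and from 0.087 to 0.50 for DMF minus DMSO at 0.1 ml/L.

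Of 32 same-numbered combinations of pools, 14 correlated above 0.1 (range -0.52 to 0.40). Differently numbered combinations were not set beside them, so these values cannot tell whether replicate numbers pair the pools. With the replicate number as a block, which left 2 residual degrees of freedom, 0 of all 3253 probes and so 0 members were called, and the medians were -0.22 for DMF 0.1 minus control, -0.17 for the step in DMF, 0.11 for DMF minus DMSO at 0.025 ml/L and -0.092 for the difference between the steps. Signal over background limits 04b10, 05g08 and 05g22, which were not tested. It also limits the tested probe 04b20, whose Cy5 amplitude on array 14 was 0.637 times that of the empty spots. For DMSO 0.1 replicate 2 over DMSO 0.025 replicate 2, its log2 ratio was 1.07 on array 14 and -0.02 on array 4.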
